A study of Homo sapiens with 2 samples.

Results

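The interstitial matrix was followed through 10 genes in cultured human colon organoids with and without inflammatory cytokines: COL1A1, COL1A2, COL3A1, COL5A1, COL5A2, COL6A1, COL6A2, COL6A3, FN1 and SPARC. They were taken by gene symbol, and all 10 were found among the 36601 genes of the files. Their main values come from mesenchymal cells that were called without any collagen. Such a cell had at least 10000 unique molecular identifiers (UMIs, each a tag for 1 captured transcript molecule), at most 20% of UMIs from mitochondrial genes, under 1 EPCAM UMI per 10000 and at least 20 VIM UMIs per 10000. By this gate 367 of 4898 barcodes were mesenchymal, 234 of 3257 in the untreated library (CNT) and 133 of 1641 in the cytokine library (3CK).

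Both libraries were made from organoids of 1383D6, an established induced pluripotent stem cell line, and the 3CK organoids were given IL-1β, TNF-α and IFN-γ over 8 days. CNT and 3CK cells shared the same differentiation, with Activin A and FGF2 and then EGF, forskolin, the MEK inhibitor PD98059 and the demethylating agent 5-Aza-2'-deoxycytidine in Matrigel, a laminin-rich basement membrane extract. The labels name further reagents only in part, give no cytokine dose and describe 1 cell line only, and the series title presents the organoids as a model of ulcerative colitis. Each group is 1 library from the 10x Genomics 3' v3.1 chemistry, so no difference below has a replicate check and none was tested. Every interval is a 95% interval that covers counting error only.

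Fibrillar collagens are chains wound into a long helix, secreted as procollagen, trimmed and then assembled outside the cell into the fibrils that give tissue its tensile strength. Collagen VI forms beaded filaments next to the cell surface, fibronectin forms a fibrillar scaffold that cells grip through integrins, and SPARC is a secreted protein that binds collagen during its assembly. In the gut wall these proteins are made mainly by fibroblasts, smooth muscle cells and other mesenchymal cells, and their excess deposition is a feature of fibrosis in inflammatory bowel disease.

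The genes lie on 6 chromosomes of GRCh38, the build named in the submitters' processing notes. COL3A1 (chr2:188974373-189012746, plus strand) and COL5A2 (chr2:189031898-189441111, minus strand) are neighbours, as are COL6A1 (chr21:45981770-46005048) and COL6A2 (chr21:46098112-46132848), both on the plus strand. COL1A1 lies at chr17:50184101-50201631 on the minus strand, COL1A2 at chr7:94394895-94431227 on the plus strand and COL5A1 at chr9:134641803-134844843 on the plus strand. COL6A3 (chr2:237324018-237414164), FN1 (chr2:215360865-215436068) and SPARC (chr5:151661096-151686915) are on the minus strand.

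RefSeq promoter windows (GRCh38.p14, 250 bases before to 50 after the start) were matched for 5 of the 10 genes, namely FN1, COL5A1, COL6A2, COL6A3 and SPARC. The bases upstream of the start are shown for the 3 of these windows that hold a GC box, which are also those of the gene with the smallest difference between libraries (FN1), of 1 fibrillar collagen and of 1 collagen VI chain. They are written 5′ to 3′ along the gene, end 11 bases before the start, overlap no annotated exon, and carry in capitals the GC box (GGGCGG or its reverse complement), the CCAAT box and the TATA box (TATAAA). FN1 is chr2:215436079-215436238 on the minus strand, COL5A1 is chr9:134641553-134641792 on the plus strand and COL6A2 is chr21:46097942-46098101 on the plus strand.
FN1: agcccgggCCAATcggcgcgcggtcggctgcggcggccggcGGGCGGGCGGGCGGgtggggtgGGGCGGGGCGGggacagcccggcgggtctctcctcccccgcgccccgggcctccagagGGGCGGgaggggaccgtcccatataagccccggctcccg
COL5A1: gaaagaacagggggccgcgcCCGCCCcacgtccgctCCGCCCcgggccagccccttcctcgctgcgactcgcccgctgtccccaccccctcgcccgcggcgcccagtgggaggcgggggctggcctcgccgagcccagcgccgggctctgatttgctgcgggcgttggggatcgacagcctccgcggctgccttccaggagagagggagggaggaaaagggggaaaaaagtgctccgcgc
COL6A2: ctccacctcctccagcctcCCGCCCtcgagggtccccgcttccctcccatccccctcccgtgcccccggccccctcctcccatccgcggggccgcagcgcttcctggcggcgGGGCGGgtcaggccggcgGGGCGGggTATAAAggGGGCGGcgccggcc
The FN1 stretch is 83.1% G and C and holds 6 GC boxes and 1 CCAAT box whose first base is 162 bases upstream. The COL6A2 stretch holds 4 GC boxes and a TATA box 32 bases upstream, and the COL5A1 stretch holds 2 GC boxes and neither of the other boxes.

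These letters are common among promoters. On either strand of the 27303 windows in the table, 44.6% held the GC box, 35.7% CCAAT and 12.0% TATAAA. The NF-kB-like pattern (GGG, any 5 bases, CC) was in 58.0% of all windows and in 3 of the 5 (FN1, COL5A1 and COL6A2), where its matches overlapped one another and some GC boxes. The GAS-like pattern TTCNNNGAA (7.88% of all windows) and the AP-1-like pattern TGANTCA (7.76%) were in none of the 5. The SMAD box CAGAC (12274 of all windows) was in those of COL6A3 and SPARC.

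The called cells carried most of the mesenchymal genes that the gate did not use, though not all of these set them apart. THY1, a surface protein of fibroblasts, was at 123 CPM (counts per 1000000, here a gene's UMIs scaled by all UMIs of the cells summed) in CNT against 71.7 in 3CK, against 0.537 and 0.0358 CPM in epithelial cells of the same libraries, which were called from at least 5 EPCAM and under 5 VIM UMIs per 10000 (306 and 310 cells). ZEB2, a repressor of epithelial genes, was at 112 and 74.2 CPM, against 0.358 and 0.394 CPM in epithelial cells. CDH1, the epithelial cadherin, was at 9.45 and 10.8 CPM, against 179 and 268 CPM there. CDH2 and S100A4 did not set the cells apart: CDH2 was at 204 and 102 CPM, against 382 and 273 CPM in epithelial cells, and S100A4 at 1228 and 1011 CPM, against 1240 and 1132 CPM. Of the 18 non-matrix mesenchymal markers, the somite homeobox factors MEOX1 and MEOX2 had at most 3 UMIs in either library.

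The mesenchymal cells were 15.9% (14.1 to 17.8) of the 1474 CNT barcodes with at least 10000 UMIs and 13.2% (11.2 to 15.4) of the 1009 such 3CK barcodes. They held 15559404 and 12627976 UMIs, at which 3 UMIs are worth 0.193 and 0.238 CPM. The 3CK cells were deeper, with a median of 90846 UMIs and 9020 genes against 57571 UMIs and 7840.5 genes in CNT. No barcode was shared by the libraries.

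Transcripts listed as markers of other cell types were in the gate at different levels in the libraries. In the epithelial cells the 7 leukocyte markers summed to 157.8 CPM in CNT and 129.5 in 3CK. Within the gate these 7 markers summed to 76.0 CPM in CNT against 258 in 3CK, mainly TYROBP, CD68 and FCER1G. There PTPRC, the defining leukocyte surface phosphatase, had 7 and 31 UMIs and the T cell gene CD3E had 1 and 0. Cells with at least 2 leukocyte marker UMIs per 10000 were 15 of 234 in CNT (6.41%) and 54 of 133 in 3CK (40.6%). The 54 cells held 28 of the 31 PTPRC UMIs in 3CK, and the 15 cells held 1 of the 7 in CNT. Whether these cells are another cell type or mesenchymal cells that carry such transcripts was not tested. The word mesenchymal therefore stands here for the gate. The 8 hepatic markers, at 97141 and 36262 CPM in the epithelial cells, stood at 1659 CPM in CNT against 884 in 3CK within the gate. The 9 epithelial markers stood at 55.9 and 126 CPM, and the glial genes SOX10 and S100B had at most 7 UMIs each, whereas the neuronal TUBB3 was at 209 and 132 CPM and STMN2 at 38.4 and 25.5 CPM. TUBB3 was at 146 and 219 CPM in the epithelial cells, so it was not particular to the gate. The 7 endothelial markers summed to 71.5 CPM in CNT and 39.0 in 3CK, but did not all go 1 way. KDR was at -2.02 and TEK at -1.25 on the log2 scale, and CDH5 (23 and 8 UMIs) and VWF (14 and 6 UMIs) were lower too. CLDN5 was higher in 3CK (32 and 96 UMIs, 1.89), as was ESAM (55 and 85 UMIs, 0.93), and PECAM1 was at -0.11. The 6 pericyte markers summed to 94.9 and 51.3 CPM. All 12 cell cycle genes were higher in 3CK, at 447 and 640 CPM in sum. The median mitochondrial share was 3.89% and 2.91%, and the nuclear RNA MALAT1 was at 5838 and 3925 CPM. The part of these in the differences below was not tested, apart from the comparisons within and without such cells that are given. The interferon-γ response list (20 of 20 genes) and the NF-kB list (15 of 18) were at least 2-fold higher in 3CK, with medians of 3.40 and 2.61 on the log2 scale.

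In the mesenchymal cells all 10 matrix genes were lower in 3CK, and 6 of them by at least 2-fold: COL1A1, COL1A2, COL3A1, COL5A1, COL5A2 and COL6A1. Of all 9870 genes that reached 10 CPM in at least 1 library, 54.4% were lower, 6.59% at least 2-fold lower and 5.31% at least 2-fold higher. The median log2 ratio of 3CK over CNT was -1.14 (-1.21 to -1.07) over the 10 genes and -0.05 over all genes. Summed, the 10 genes took 12387 CPM in CNT against 4790 in 3CK. Without the cells that had at least 2 leukocyte marker UMIs per 10000, all 10 were still lower, with a median of -0.93 and 5 genes at least 2-fold lower, COL5A2 being the one lost.

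**Figure D1:**
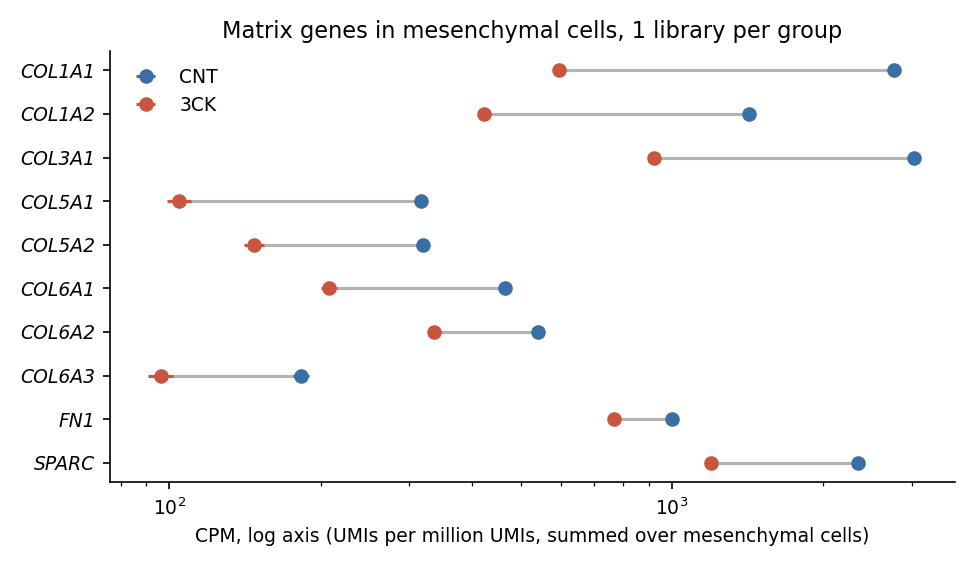
Level of each gene in mesenchymal cells of the untreated (CNT, blue) and cytokine (3CK, red) library, in CPM on a log axis, with 1 library per group and bars for the 95% counting interval. Every red point lies to the left of its blue point, with the widest gap for COL1A1 (2765 against 597 CPM) and the narrowest for FN1 (998 against 765 CPM).

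Collagen I, the main fibrillar collagen of most connective tissue, differed most. COL1A1, which encodes its α1 chain, was at 2765 CPM (2739 to 2791) in CNT against 597 (583 to 610) in 3CK, a log2 ratio of -2.21 (-2.25 to -2.18). Only 83 of the 9870 genes had a lower ratio. COL1A2, which encodes the α2 chain, was at 1425 CPM in CNT against 422 in 3CK, a log2 ratio of -1.76 (-1.80 to -1.71). The α1 transcript was 1.94 times the α2 transcript in CNT (1.91 to 1.97) and 1.42 times in 3CK (1.37 to 1.47). That difference between the chains depended on the gate and was not tested. With at least 40 VIM UMIs per 10000 the log2 ratios were -2.13 for COL1A1 and -2.09 for COL1A2, and without the cells with leukocyte marker UMIs they were -1.86 and -1.72. In cells with 40 to 80 VIM UMIs per 10000 the order was the opposite, with -2.15 for COL1A1 and -2.19 for COL1A2.

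Collagen III accompanies collagen I in extensible tissue such as the gut wall. COL3A1 was at 3033 CPM (3006 to 3061) in CNT against 919 (902 to 936) in 3CK, a log2 ratio of -1.72 (-1.75 to -1.69). Relative to COL1A1 it stood higher under cytokines, at 1.10 times COL1A1 in CNT and 1.54 times in 3CK. These ratios are read only as a difference between libraries, since UMI counts of a 3' assay do not place different genes on 1 scale.

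Collagen V is a minor fibrillar collagen that sits inside collagen I fibrils and sets their diameter. COL5A1 was at 317 CPM in CNT against 104.5 in 3CK, a log2 ratio of -1.60 (-1.69 to -1.51). COL5A2 differed less, with 319 CPM in CNT against 147 in 3CK, a log2 ratio of -1.12 (-1.19 to -1.04). COL5A1 over COL5A2 was 0.992 in CNT (0.953 to 1.03) and 0.709 in 3CK (0.660 to 0.761). COL5A1 had the lower ratio of the pair under each of the 16 other settings tried. Without the cells with leukocyte marker UMIs, COL5A2 was at -0.80 and no longer 2-fold lower.

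The collagen VI chains differed by less than collagen I. COL6A1 was at 465 CPM in CNT against 208 in 3CK, a log2 ratio of -1.16 (-1.23 to -1.10). COL6A2, which encodes a chain of the same protein from a neighbouring gene, was at 542 and 337 CPM, a log2 ratio of -0.69 (-0.74 to -0.63). COL6A3, the largest chain, was at 183 and 96.1 CPM, a log2 ratio of -0.93 (-1.02 to -0.83). COL6A1 over COL6A2 was 0.858 in CNT (0.832 to 0.886) and 0.617 in 3CK (0.587 to 0.648). COL6A1 had the lower ratio of that pair under each of the 16 other settings too. It was itself short of 2-fold with cells weighted equally (-0.94) or thinned to 10000 UMIs (-0.93).

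SPARC was at 2341 CPM (2317 to 2365) in CNT against 1196 (1177 to 1215) in 3CK, a log2 ratio of -0.97 (-0.997 to -0.942), just short of 2-fold. FN1 had the smallest difference, with 998 CPM (982 to 1013) in CNT against 765 (750 to 780) in 3CK, a log2 ratio of -0.38 (-0.42 to -0.35). A lower ratio than that of FN1 was found for 25.6% of all genes, so its difference was no outlying one. Without the cells with leukocyte marker UMIs the FN1 ratio was -0.14 and that of COL6A3 -0.53. As UMIs per cell, without scaling by depth, FN1 was the exception: the mean was 66.3 in CNT and 72.6 in 3CK, whereas the other 9 genes had fewer UMIs per cell in 3CK. COL1A1 had a mean of 183.9 UMIs per cell in CNT and 56.65 in 3CK. On this measure only COL1A1, COL1A2, COL3A1 and COL5A1 were at least 2-fold lower. COL6A1 was at -0.65, COL5A2 at -0.60, SPARC at -0.46, COL6A3 at -0.41 and COL6A2 at -0.17 on the log2 scale. The median of COL6A2 was 22.5 UMIs per cell in CNT and 25 in 3CK.

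The mix of matrix transcripts therefore differed as well as their sum. COL1A1 made up 22.3% of the UMIs of the 10 genes in CNT and 12.5% in 3CK, and COL3A1 24.5% and 19.2%. SPARC made up 18.9% and 24.97%, and FN1 8.05% and 15.97%. FN1 over COL1A1 was 0.361 in CNT and 1.28 in 3CK, and SPARC over COL1A1 was 0.847 and 2.00.

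Cell by cell, the lower sums were spread over most cells. After each cell was thinned to 10000 UMIs, which no gated cell fell short of, the 10 genes together had a median of 103.5 UMIs per cell in CNT (10th to 90th percentile 33 to 225) and 35 in 3CK (11 to 114). Of the 133 cells of 3CK, 85.7% lay below the CNT median. COL1A1 had a median of 20 UMIs in CNT and 3 in 3CK, and 88.7% of 3CK cells lay below the CNT median. The ranges overlapped: the highest 3CK cell had 97 COL1A1 UMIs, and the lowest CNT cells had 0.

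**Figure D2:**
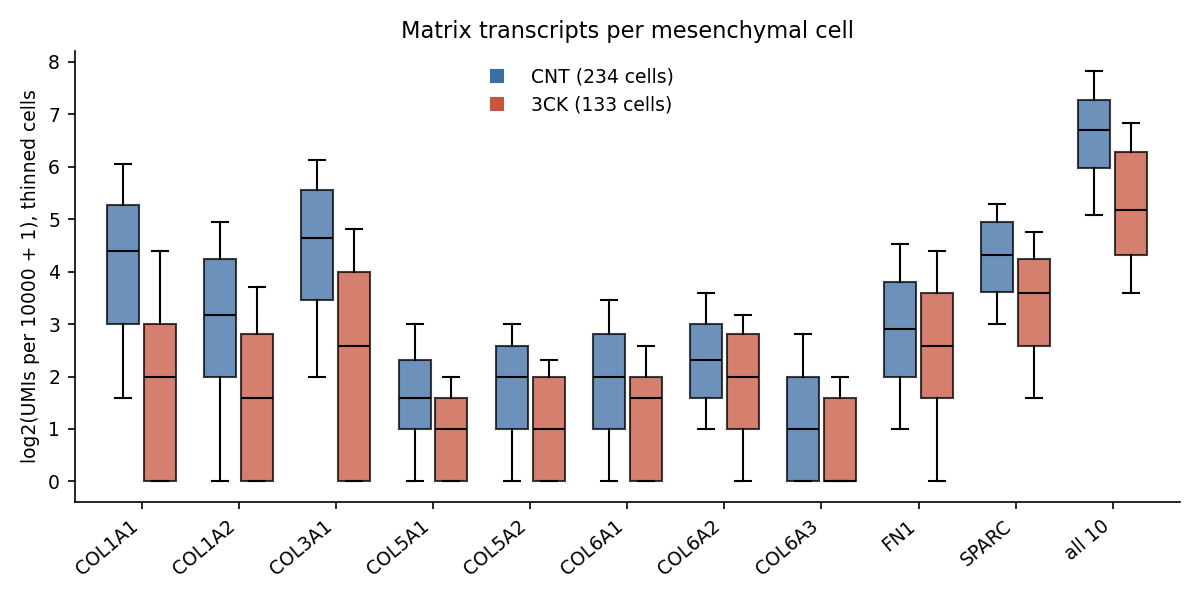
UMIs per mesenchymal cell after thinning to 10000 UMIs, as log2(UMIs + 1), for each gene and for all 10 together in CNT (234 cells) and 3CK (133 cells); boxes span the quartiles with the median as a line, whiskers the 10th to 90th percentile. The boxes of COL1A1 and COL3A1 are widely offset (medians of 20 and 3, and of 24 and 5 UMIs), while those of FN1 largely overlap (6.5 and 5 UMIs).

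The share of cells with at least 1 COL1A1 UMI in the thinned data was 94.4% in CNT (90.7 to 97.0) and 74.4% in 3CK (66.2 to 81.6), and 98.7% and 92.5% before thinning. In epithelial cells, with a median of 66508.5 and 88177 UMIs, the thinned share was 19.0% and 5.48%, and 68.6% and 39.7% before thinning. For COL3A1 it was 97.0% and 70.7% in mesenchymal cells, against 24.2% and 5.81% in epithelial cells. Before thinning these shares were 99.1% and 90.2%, and 73.2% and 25.8%. SPARC was nearly everywhere, in 99.1% of CNT and 97.7% of 3CK mesenchymal cells, and its median was 19 and 11 UMIs. FN1 was in 91.5% and 88.7% of mesenchymal cells, and in 89.2% and 84.2% of epithelial cells. Before thinning, SPARC and FN1 were each in at least 98.3% of mesenchymal cells of both libraries, and FN1 in 98.4% and 97.7% of epithelial cells. The collagen I and III transcripts thus marked off the mesenchymal cells from these epithelial cells, and FN1 did not. They were not confined to the gate. Barcodes of neither class held 39.4% of the COL1A1 UMIs of all kept barcodes, defined below, in CNT and 25.8% in 3CK. For COL3A1 these shares were 39.1% and 23.9%.

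Over all kept barcodes, those with at least 500 genes and at most 20% mitochondrial UMIs (2539 in CNT and 1414 in 3CK), 8 of the 10 genes were at least 2-fold lower in 3CK, where 7.42% of 10260 genes were. All 10 were lower, where 49.7% of genes were. The 2 genes short of 2-fold were COL6A2, at 162 and 87.4 CPM, and FN1, at 861 and 733 CPM. COL1A1 was at 701 CPM in CNT against 112 in 3CK, a log2 ratio of -2.65 (-2.68 to -2.62). In such sums, fewer mesenchymal cells and less RNA per cell cannot be told apart. The gated cells supplied 46.1% of the UMIs of the 10 genes in CNT and 37.6% in 3CK. For COL1A1 they supplied 59.6% and 72.0%, and for FN1 17.5% and 14.1%.

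Epithelial cells held little of most fibrillar collagen transcripts and a good deal of FN1. COL1A1 in epithelial cells was 1.10% of its mesenchymal CPM in CNT and 1.40% in 3CK, and COL3A1 was 1.42% and 0.593%. COL1A2 and COL5A1 were at most 3.23% in either library, while COL5A2 was at 9.40% and 16.5%. COL6A1 was at 24.3% and 36.3%, SPARC at 12.5% and 15.6%, and FN1 at 55.0% and 86.8% of the mesenchymal level. COL5A1 and COL6A3 stayed under 10 CPM in epithelial cells of both libraries. Of the 8 genes above that level, 2 were at least 2-fold lower in 3CK, COL1A1 (30.4 and 8.34 CPM) and COL3A1 (42.9 and 5.44 CPM), where 8.16% of 9855 genes were, and 7 were lower by any size, where 51.3% were. Whether these few UMIs are made by the cells or are free RNA of the suspension was not tested.

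FN1 was the only one of the 10 that was higher in 3CK in epithelial cells. It was at 548 CPM (539 to 558) in CNT against 664 (654 to 674) in 3CK, a log2 ratio of 0.28 (0.24 to 0.31), opposite to the mesenchymal cells. The median epithelial cell did not show it: after thinning it had 4 FN1 UMIs in both libraries. The share of cells with an FN1 UMI was lower in 3CK, as given above, and the 90th percentile was higher, 18.1 UMIs against 13 in CNT. Hepatic markers, which include genes of fetal gut and yolk sac, differed strongly between the libraries in these cells. The epithelial cells were therefore divided at the median of their hepatic UMIs. FN1 was at 403 CPM in CNT against 581 in 3CK on the low side (82 and 226 cells), and at 603 and 898 CPM on the high side (224 and 84 cells). It was higher in 3CK on both sides, with log2 ratios of 0.53 and 0.57.

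**Figure D3:**
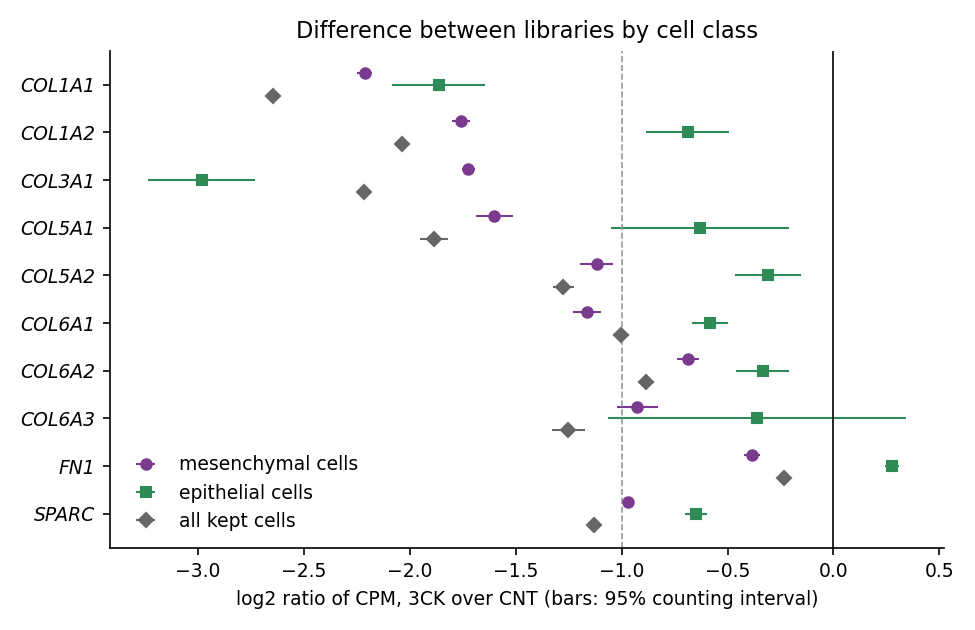
Log2 ratio of CPM, 3CK over CNT, for each gene in mesenchymal cells (circles), epithelial cells (squares) and all kept cells (diamonds); bars are 95% counting intervals and the dashed line marks a 2-fold lower level. Mesenchymal points lie between -2.21 and -0.38, and FN1 in epithelial cells, at 0.28, is the only point to the right of 0.

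The mesenchymal cells of the libraries could differ in make-up, so the comparison was repeated on either side of medians of marker lists. Cells with few cell cycle transcripts gave a log2 ratio of the summed genes of -1.495 and cells with more gave -1.21. For the non-matrix mesenchymal markers the sides gave -1.42 and -1.40. Most of that list's 5139 CPM in CNT and 5850 in 3CK was LGALS1 (2911 and 4081 CPM) and S100A4 (1228 and 1011 CPM). This division therefore follows mainly LGALS1 and S100A4, not the other markers of the list. The sides of the mesothelial markers gave -1.30 and -1.47. All 10 genes were lower in 3CK on every one of these sides. The medians of the cell cycle list (0.53 UMIs per 10000) and the mesothelial list (0.32) were low. Their high sides therefore also held cells with only a few such UMIs, and these divisions separate cell types poorly. For the hepatic markers the low side (57 and 127 cells) gave -1.22, and the high side held only 6 cells of 3CK against 177 of CNT.

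The sides of the smooth muscle and myofibroblast markers differed more. Cells low in these markers (124 in CNT and 60 in 3CK) had a log2 ratio of the summed genes of -1.71, and cells high in them (110 and 73) one of -1.14. FN1 was at 1002 CPM in CNT against 543 in 3CK on the low side, a log2 ratio of -0.89, and at 993 and 954 CPM on the high side, a log2 ratio of -0.06. COL6A3 had log2 ratios of -1.65 and -0.41, and COL1A1 of -2.74 and -1.93. SPARC was alike on both sides, at -0.99 and -0.97.

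**Figure D4:**
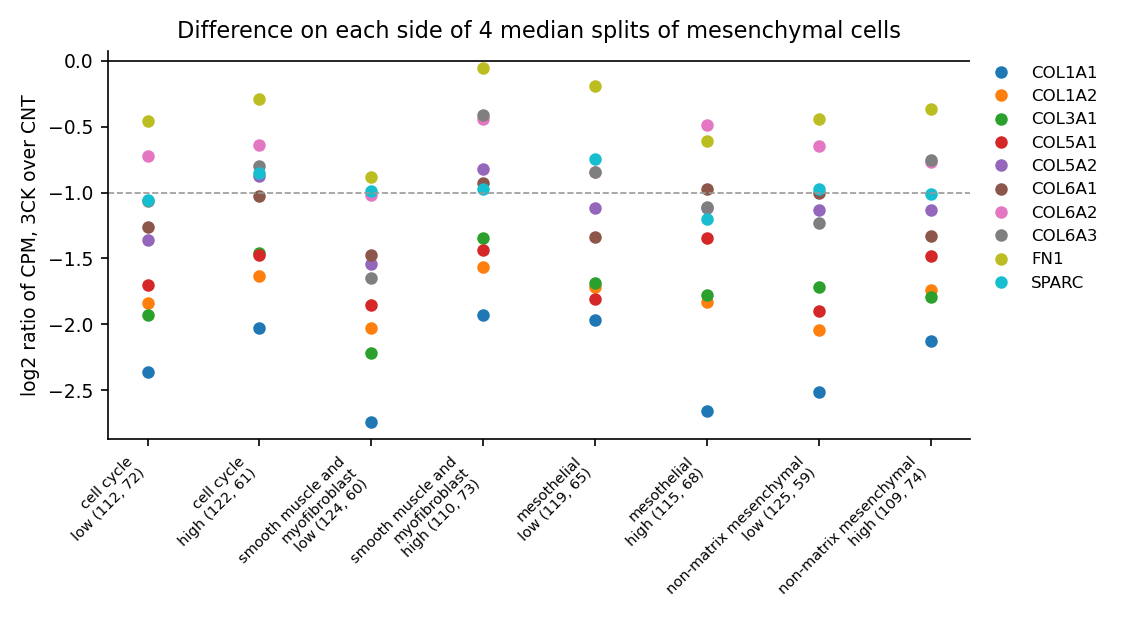
Log2 ratio of CPM, 3CK over CNT, of each gene (coloured points) in mesenchymal cells on the low and high side of the median of 4 marker lists, with the numbers of CNT and 3CK cells in brackets; the dashed line marks a 2-fold lower level. Scaled by all UMIs, every point is below 0, and COL1A1 is the lowest in each column, from -2.74 to -1.93.

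Cells of both libraries with at least 1 EPCAM and at least 20 VIM UMIs per 10000 (158 and 67), left out of the mesenchymal gate, gave a like picture. Their COL1A1 was at 446 CPM in CNT against 79.5 in 3CK, and the 10 genes summed had a log2 ratio of -1.21.

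Within 3CK, the mesenchymal cells were divided by the strength of the cytokine response. The 66 mesenchymal cells above the median of the interferon-γ response list had 4589 CPM of the 10 genes, and the 67 others had 5005 CPM, a log2 ratio of -0.13. COL1A1 was at 501 CPM in the cells with the stronger response and 700 CPM in the others, while FN1 was at 864 and 658 CPM, a log2 ratio of 0.39, opposite in sign to its difference between the libraries. For the NF-kB list the summed genes were at 4398 and 5267 CPM, a log2 ratio of -0.26. COL1A1 was at 498 and 717 CPM on that division and COL1A2 at 441 and 398 CPM, so the α chains of collagen I went opposite ways. The cells above the NF-kB median were deeper, with a median of 104264 UMIs against 77791, and the part of depth in this was not tested.

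Across single cells, the fibrillar chains varied together. Spearman's rho between COL1A1 and COL1A2 was 0.71 over CNT cells and 0.66 over 3CK cells, and between COL1A1 and COL3A1 it was 0.70 and 0.72. Over all 45 pairs of the 10 genes the median was 0.39 in CNT and 0.42 in 3CK, and the lowest was -0.12, between COL6A3 and SPARC in CNT. These cells share a library and differed in depth as sequenced, so the values are descriptions.

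The 10 other genes whose UMIs varied most like the sum of the matrix genes were IGFBP3, DCN, H19, LUM, COL4A2, POSTN, FKBP10, IL6ST, FBLN2 and COL4A1. They were ranked by the lower of the 2 libraries' rho among 2710 genes with at least 50 CPM in both, over the 234 and 133 cells. IGFBP3, a binding protein of insulin-like growth factors, led with a rho of 0.59 in CNT and 0.51 in 3CK, and its level was 2846 CPM in CNT against 516 in 3CK. DCN, the collagen-binding proteoglycan decorin, had 0.58 and 0.49, with 1250 and 956 CPM. H19, an imprinted non-coding RNA, had 0.48 and 0.67, with 3168 and 938 CPM. All 10 of these genes were lower in 3CK, where 54.4% of all genes were, with log2 ratios from -2.46 to -0.39.

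Genes that make, trim or surround the fibrils were described in the same cells, as lists whose members were counted once they reached 10 CPM in at least 1 library. In each list the counts stand beside 6.59% of all genes at least 2-fold lower and 5.31% at least 2-fold higher, and nothing is called particular to a list. Of the other fibrillar collagens 2 of 6 reached that level, and both were lower: COL11A1 at 59.7 CPM in CNT against 16.7 in 3CK (log2 ratio -1.84), and COL27A1 at -0.86. Of 17 fibril-associated and beaded collagens 5 reached it, with 2 at least 2-fold lower and 1 higher. COL14A1, which coats fibrils, was at 142 and 37.3 CPM (-1.93), and COL8A1, a network-forming short-chain collagen, at 7.01 and 17.4 CPM (1.31).

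The machinery that folds collagen was lower by less than the collagens. Of 22 measured folding and modification genes 21 were lower and 5 at least 2-fold lower, against 54.4% and 6.59% of all genes, with a median of -0.54. The 5 were P3H4, which belongs to a lysyl hydroxylation complex (83.7 and 32.7 CPM, -1.36), the prolyl isomerases FKBP10 and FKBP7, the coat protein SEC24D, and SERPINH1, the collagen chaperone HSP47 (301 and 149 CPM, -1.01). P4HB, a subunit of prolyl 4-hydroxylase that also folds other proteins, was at 716 and 649 CPM (-0.14). PLOD3, a lysyl hydroxylase, was the only one that was higher, at 51.8 and 56.9 CPM (0.14).

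Of 10 measured genes for trimming and crosslinking procollagen, 4 were at least 2-fold lower and 1 at least 2-fold higher, with a median of -0.41. ADAMTS3, a procollagen N-propeptidase, was at 12.6 CPM in CNT against 2.93 in 3CK (-2.10). LOX, a lysyl oxidase that crosslinks collagen, was at 462 and 271 CPM (-0.77), while its relative LOXL2 was at 294 and 301 CPM (0.03). TGM2, a transglutaminase that crosslinks fibronectin among other proteins, was at 217 and 471 CPM (1.12).

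Among 25 measured matrix glycoproteins and elastic fibre genes, 11 were at least 2-fold lower and 1 higher, and the median was -0.92. MFAP4, a microfibril protein, was at 60.9 and 11.2 CPM (-2.45), and POSTN, periostin, at 356 and 142 CPM (-1.33). TNC, tenascin C, a matrix protein of wounds and inflammation, went the other way, from 2.89 CPM in CNT to 24.7 CPM in 3CK (3.095). CCN2, a matricellular growth factor, was at 321 and 347 CPM (0.11). Of the small leucine-rich proteoglycans 3 of 10 were measured and all were lower, LUM (lumican) at 1373 and 419 CPM (-1.71) and DCN by least (-0.39).

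Receptors for these proteins had a median of -0.15 over 15 measured genes, with 5 at least 2-fold lower and 0 at least 2-fold higher. The 5 were ITGA8, ITGA11, SDC2, ITGAV and ITGB5. ITGA8, an integrin chain that binds fibronectin, was at 13.9 CPM in CNT against 1.98 in 3CK (-2.82), and ITGA11, a fibroblast collagen receptor chain, at 28.1 and 5.23 CPM (-2.43). ITGB1, the shared β1 chain, was at 547 and 563 CPM (0.04), CD44 at 542 and 688 CPM (0.34), and ITGA2, another collagen receptor chain, at 20.6 and 39.2 CPM (0.93).

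TGF-β is a major inducer of collagen genes. Of 17 measured genes of its pathway and targets 3 were at least 2-fold lower and 1 at least 2-fold higher, with a median of -0.38. By any size 12 were lower and 5 higher. LTBP1, which anchors latent TGF-β to the matrix, was at 61.3 CPM in CNT against 13.8 in 3CK (-2.15). TGFB1 itself was at 99.4 and 81.0 CPM (-0.30), and SMAD3, a transducer of the signal, at 151 and 158 CPM (0.07).

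Transcription factors that bind or regulate collagen genes had a median of -0.11 over 18 measured genes, with 1 at least 2-fold lower and 3 higher. SNAI2 was at 49.6 CPM in CNT against 24.2 in 3CK (-1.04). Those that were higher were PRRX1, a mesenchymal homeobox factor (25.3 and 76.9 CPM, 1.60), ETS1 (26.8 and 66.3 CPM, 1.31) and KLF4 (9.96 and 23.6 CPM, 1.24). YBX1 was at 733 and 670 CPM (-0.13). CIITA, through which interferon-γ is known to repress collagen I in fibroblasts, had 5 UMIs in CNT and 6 in 3CK, too few to compare.

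**Figure D5:**
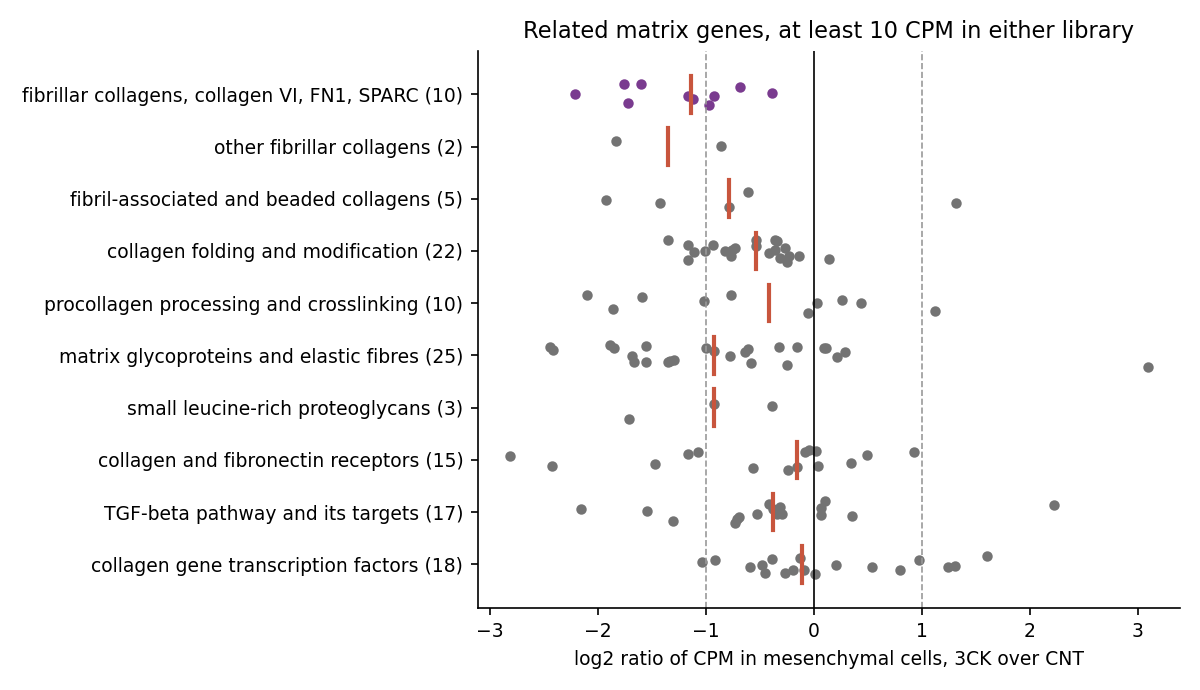
Log2 ratio of CPM in mesenchymal cells, 3CK over CNT, for each gene that reached 10 CPM in at least 1 library, by list, with the number of genes in brackets, the median as a red line and dashed lines at 2-fold. The 10 matrix genes (purple) have a median of -1.14, the folding genes -0.54 and the receptors -0.15, while TNC at 3.095 is the point farthest to the right.

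Mesenchymal identity genes did not move as 1 block. Of the 15 measured non-matrix markers 3 were at least 2-fold lower and 2 higher, with a median of -0.60. PDGFRA, a receptor of fibroblast precursors, was at 71.5 CPM in CNT against 27.6 in 3CK (-1.37), TCF21 at 50.2 and 19.4 CPM (-1.37) and CDH11 at 208 and 89.1 CPM (-1.22). PRRX1, given above, and NT5E (64.1 and 179 CPM, 1.49) were higher. VIM, which the gate used, was at 4566 and 5086 CPM. The smooth muscle markers ACTA2 (112 and 109 CPM), DES (84.8 and 85.2 CPM) and TAGLN (494 and 560 CPM) were close in both libraries. Other genes of that list were not: MYOCD had 99 UMIs in CNT and 12 in 3CK (-2.74), LMOD1 79 and 18 UMIs (-1.83), and ACTG2 was at 25.2 and 32.4 CPM (0.36).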

How the data were processed

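Single-cell libraries of CNT and 3CK organoids were read from the deposited matrices, which give the authors' raw UMI counts for every gene in every barcode, made with Cell Ranger 7.1.0 on GRCh38 per the submitters' processing notes. Whether intronic reads were counted is not given in the sources used here. All 10 gene IDs were matched in the table of names.

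UMIs were summed over the cells of a class in each library and scaled to CPM by their total. The log2 ratio is 3CK over CNT, and its interval is that of the share of both counts held by 3CK (exact binomial), put on the log2 scale. Levels carry exact Poisson intervals and shares exact Clopper-Pearson intervals, all at 95%. The interval of a median is the mean of those of its middle members. Genes that reached 10 CPM in at least 1 library were compared, and at least 2-fold (log2 of 1) counted as a difference. A count of 0 was set to 3 UMIs, and genes with 3 or fewer in both were left without a ratio. With 1 library per group no test was made, and cells were not used as replicates. UMIs of the 2 libraries came from PCR-amplified, deduplicated reads, so intervals cover counting error only.

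For values per cell, each cell was thinned to 10000 UMIs without replacement. Doublets were not removed in the main values. Removing those scored by Scrublet (scanpy 1.11.5) at 0.8% per 1000 barcodes was an alternative, and it marked 1 mesenchymal cell in each library. Other alternatives changed the gate, the depth and mitochondrial limits, the weight of cells and the scaling, with TMM factors from edgeR 4.0.16. Analyses ran in Python 3.11.15 and were tested on simulated data. From each list of matrix, receptor, TGF-β pathway and transcription factor genes, the text names the largest and smallest ratio and the highest level. Other genes of these lists were named after their values were seen. For the cell cycle, interferon-γ response and NF-kB lists only summary values are given. Some list genes, among them 1 that this choice would name, are not reported here. The 10 genes and the lists were chosen with earlier results of these data known.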

Additional observations from a re-analysis of the deposited data

Results flagged for a closer look

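FN1 went opposite ways in the classes of cells, with a log2 ratio of 3CK over CNT of 0.28 (0.24 to 0.31) in epithelial cells and -0.38 (-0.42 to -0.35) in mesenchymal cells. With 1 library per group, the difference between the classes was not tested. After thinning, the median epithelial cell had 4 FN1 UMIs in both libraries, and 47.1% of CNT and 48.1% of 3CK cells lay below the CNT median. The 90th percentile was higher in 3CK, with 18.1 UMIs against 13. The highest cells had 43 and 86 UMIs. Epithelial hepatic markers differed in the opposite direction, with 97141 CPM in CNT and 36262 CPM in 3CK. FN1 was higher in 3CK on both sides of the median of these markers.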

How the results depend on the processing

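With 1 library per group, nothing here separates the cytokines from the culture or the capture. The median log2 ratio of the 10 genes in mesenchymal cells, -1.14, became -1.27 with at least 10 VIM UMIs per 10000 and -1.30 with at least 40. It was -1.22 with EPCAM under 2 and -1.34 with cells gated without VIM (361 and 182 cells). That gate asked instead for at least 5 UMIs per 10000 of the 18 non-matrix mesenchymal markers. Epithelial cells held 1722 CPM of these markers in CNT and 1523 in 3CK, above that limit, so the setting gates mainly on low EPCAM. The median of the 10 genes was -1.01 with cells weighted equally and -0.98 with cells thinned to 10000 UMIs. A total without mitochondrial, ribosomal and the 50 most abundant genes gave -1.22, and moved the median of all genes to -0.14. Without cells with leukocyte transcripts, a setting added after the data were seen, it was -0.93. In all kept cells the median of -1.26 became -1.20 with at least 1000 genes and at most 10% mitochondrial UMIs, -1.39 with equal weights, -1.17 with TMM factors and -1.36 with the reduced total, which moved the median of all genes there to -0.11. From 5 to 8 of the 10 genes were at least 2-fold lower in mesenchymal cells and 7 to 8 in all kept cells, on values scaled by depth. All 160 values of single genes under the 16 settings stayed below 0, with COL1A1 between -2.35 and -1.86 and FN1 between -0.62 and -0.14. The share of deep barcodes called mesenchymal was 19.0% in CNT with VIM at least 10. With VIM at least 40 it was 8.07% in CNT and 7.73% in 3CK, and without VIM 24.5% and 18.0%. The share of the genes' UMIs in mesenchymal cells, under settings added after the data were seen, was 54.4% in CNT and 41.1% in 3CK with VIM at least 10 and 26.1% and 23.0% with VIM at least 40. It was 43.3% and 35.7% with EPCAM under 0.5, 47.4% and 38.8% with EPCAM under 2, and 63.2% and 44.5% without VIM. The gate settings change which cells enter. The cause of the other shifts was not tested. No paired analysis was possible because each group is 1 library and the labels carry no replicate number.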

Other observations

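Cells with under 1 EPCAM UMI per 10000 but less VIM than the mesenchymal gate asks were examined by their VIM level. Those with under 5 VIM UMIs per 10000 (72 in CNT and 40 in 3CK) had 1001 CPM of COL1A1 in CNT against 93.4 in 3CK, a log2 ratio of -3.42, larger than within the gate. COL6A3 did not follow in these cells, with 100.9 CPM in CNT against 100.8 in 3CK. Between 5 and 10 VIM UMIs per 10000 (25 and 7 cells) SPARC was at 1764 and 1777 CPM while COL1A1 was at 4464 and 322 CPM. The 3CK side of this last band holds few cells. With 10 to 20 VIM UMIs per 10000 (46 and 16 cells), COL1A1 was at -2.77, COL6A3 at -1.83 and SPARC at -1.07 on the log2 scale. In the 14 cells of each library with at least 80 VIM UMIs per 10000, COL6A3 was at 137 CPM in CNT against 158 in 3CK. The interval of its log2 ratio of 0.20 ran from -0.12 to 0.53. COL1A1 was at 3013 and 754 CPM in these cells.

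Mesenchymal cells of 3CK with at least 2 leukocyte marker UMIs per 10000 (54 cells, median of 110578 UMIs) had 3812 CPM of the 10 genes, and the other 79 (median of 85390 UMIs) had 5601 CPM. COL1A1 was at 366 and 788 CPM and FN1 at 595 and 906 CPM. PTPRC had 28 UMIs in the 54 cells and 3 in the others, LYZ had 3 and 1, and CD3E had 0 in both. TYROBP was at 177 CPM, CD68 at 184 CPM and FCER1G at 72.6 CPM in the 54 cells. In the others they were at 29.4, 51.5 and 5.80 CPM. All of these leukocyte genes are in the list that divided the cells, so their contrast was set by the division.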
